A study of Mus musculus with 8 samples.

Results

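The heat shock protein and DnaJ genes encode the chaperones that fold new proteins, hold unfolded ones and carry them across membranes. They were taken by symbol: every gene present for both lines whose name starts with Hspa, Hspb, Hspd, Hspe, Hsph or Hsp90, or is Dnaja, Dnajb or Dnajc followed by a number. This gave 72 genes of 35949 rows with a usable name for BAC and 21828 rows for 3T3-L1. By the place where the protein is known to work, 40 were grouped as cytosolic or nuclear, 13 as endoplasmic reticulum, 10 as mitochondrial and 9 as other.

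RNA-seq of poly(A) mRNA was available for 8 libraries in 4 groups of 2. BAC is a line of brown preadipocytes from the interscapular brown fat of newborn wild-type mice, immortalized with SV40 large T antigen, so it is 1 line rather than separate animals. 3T3-L1 is a mouse embryo fibroblast line that forms white-type adipocytes. Both are labelled wild type. Each was sampled at day 0, when confluent and not yet induced, and after differentiation, at day 4 for BAC and day 6 for 3T3-L1. Several other assays of the paper took BAC at day 6 as mature, so day 4 may be an earlier stage. Differentiation of both lines used an induction medium with IBMX, indomethacin, dexamethasone, insulin and T3, followed by insulin and T3 alone. The sources do not state whether the 2 libraries of a group were grown apart. The p-values therefore cover the spread from library to library alone, and this spread may be technical.

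Libraries held 9045849 to 10160636 counts. The chi-square per gene between replicates was 1.87 to 5.17, where counting noise alone would give about 1. All 5 adipocyte markers rose and all 4 preadipocyte markers fell in both lines. The summed adipocyte markers went from 178 and 217 to 15038 and 16478 CPM (counts scaled to 1000000 per library, with the library total adjusted by its TMM factor) in BAC, and from 38.3 and 53.0 to 17669 and 18902 CPM in 3T3-L1. The 4 brown markers summed to 344 and 446 CPM in BAC at day 4 and to 52.2 and 52.4 CPM in 3T3-L1 at day 6. Most of the BAC sum was Cidea, with a mean of 260 CPM. Most of the 3T3-L1 sum was Ppargc1a, with a mean of 42.1 CPM, and its mean in BAC was 46.6 CPM. Counts of the lines were normalised apart, so these levels are not compared. Markers of immune, endothelial, muscle and epithelial cells summed to at most 7.65 CPM in any library, and Ptprc, Adgre1 and Myod1 had no count in any. In bulk RNA, a change in the number of cells of a type and a change in RNA per cell cannot be told apart, and the part of the adipocyte marker rise in the results that follow was not tested.

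As background, chaperones of the Hsp70 family bind short greasy stretches of unfolded protein and release them when they exchange ATP, and DnaJ proteins bring them clients and start the ATP cycle. The Hsp90 family finishes the folding of signalling proteins, and the chaperonin formed by Hspd1 and Hspe1 encloses proteins inside the mitochondrion. Each compartment has its own set. Heat shock factor drives many cytosolic genes through the heat shock element, and the unfolded protein response drives reticulum genes through the reticulum stress element. Brown adipocytes are known for a dense content of mitochondria, whose proteins are nearly all imported and refolded after import.

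Both response elements are written in the start regions of some members, and the stretches for Hspa5 and for the pair Hspd1 and Hspe1 are shown because these genes carry the main contrast between reticulum and mitochondria. Sequences are from RefSeq, build GRCm38.p6. The bases before the start of Hspa5, the main Hsp70 of the reticulum, lie at chr2:34771840-34772089 on the plus strand, with the reticulum stress element in capitals except for its free positions. The bases before the start of Hspe1 lie at chr1:55087948-55088147 on the plus strand, with 2 overlapping heat shock elements, one on each strand, in capitals.
Hspa5: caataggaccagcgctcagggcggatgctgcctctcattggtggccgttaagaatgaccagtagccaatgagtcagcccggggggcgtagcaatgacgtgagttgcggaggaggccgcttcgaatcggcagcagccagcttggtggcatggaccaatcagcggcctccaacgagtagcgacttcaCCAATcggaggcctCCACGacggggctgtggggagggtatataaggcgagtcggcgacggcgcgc
Hspe1: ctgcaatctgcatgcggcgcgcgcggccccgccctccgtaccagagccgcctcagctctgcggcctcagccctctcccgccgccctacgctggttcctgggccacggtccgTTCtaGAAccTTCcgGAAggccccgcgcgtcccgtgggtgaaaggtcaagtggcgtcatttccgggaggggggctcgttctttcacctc

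The reticulum stress element was searched as the blocks CCAAT and CCACG with 9 free bases between them, and the heat shock element as the blocks GAA, TTC and GAA with 2 free bases between neighbours, on both strands of windows from 250 bases before to 50 after each annotated start. A window was found for 59 of the 72 members. The reticulum stress element occurred in 0.119% of all 32851 windows and in 3 members, Hspa5, Hsp90b1 and Dnajc3. These are 3 of the 11 reticulum members with a window. The sites share their fixed letters and differ between them.
Hspa5: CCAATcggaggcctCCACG
Hsp90b1, nearer site: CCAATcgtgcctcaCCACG
Hsp90b1, farther site: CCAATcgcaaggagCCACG
Dnajc3: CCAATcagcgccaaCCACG
They lie at chr2:34772025-34772043, chr10:86705533-86705551, chr10:86705638-86705656 and chr14:118937827-118937845. A shorter relative of this element, ATTGG and CCACG with 1 free base between them, occurred in 0.0365% of windows and in 1 member, the reticulum co-chaperone Dnajb11.

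The heat shock element occurred in 0.603% of all windows and in 4 members, Hspd1, Hspe1, Hsph1 and Dnajb6, of which 2 are among the 7 mitochondrial members with a window. Hspd1 and Hspe1 are read in opposite directions from one start region: the Hspe1 window shares 285 bases with an Hspd1 window, so the same elements at chr1:55088059-55088076 count for both genes. The palindromic NRF1 site and the ERR site TCAAGGTCA, which belong to regulators of mitochondrial genes, occurred in 0.971% and 0.423% of all windows and in 0 member windows. These are matches of letters within a window and not measured binding.

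How the members change as brown preadipocytes differentiate was read from BAC, day 4 against day 0. Of 63 members tested, 26 were higher, 22 were lower and 15 did not pass the edgeR quasi-likelihood test at an adjusted p of 0.05. Over all 14028 genes tested, 78.5% passed, 39.1% higher and 39.4% lower, so the members as a whole, with 41.3% higher and 34.9% lower, were near the background. Their median log2 change was 0.06, against 0.01 for all genes. The compartments, however, went apart: mitochondrial members 10 higher and 0 lower, reticulum members 1 higher and 7 lower, and cytosolic members 12 higher and 11 lower of 31 tested. With scaling to library size alone, which shifts the median of all genes to -0.26, the members split into 18 higher and 32 lower.

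For white-type adipocytes the contrast was day 6 against day 0 of 3T3-L1. Of 61 members tested, 33 were higher, 11 were lower and 17 did not pass. The background was 79.4% of 11902 genes, 39.8% higher and 39.6% lower. The median was 0.40 for the members and 0.00073 for all genes. Mitochondrial members were 9 higher and 0 lower, reticulum members 8 higher and 2 lower, and cytosolic members 14 higher and 5 lower of 30 tested. The split of higher to lower was 31 to 19 with upper-quartile factors and 30 to 25 with library size alone, under which the median of all genes moved to -0.16 and -0.29.

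Whether the change differs between the lines was tested as BAC change minus 3T3-L1 change in 1 fit over the 8 libraries. Because line and day of sampling differ together, the difference is between these 2 intervals, and line and day cannot be told apart. Of 63 members tested, 20 had a larger value in BAC, 29 a smaller one and 14 did not pass. Over all 12863 genes, 59% passed, 25.3% larger and 33.7% smaller, with a median of -0.11. Among mitochondrial members 9 were larger and 1 smaller, among reticulum members 0 were larger and 11 smaller of 13, and among cytosolic members 8 were larger and 12 smaller of 31.

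**Figure D1:**
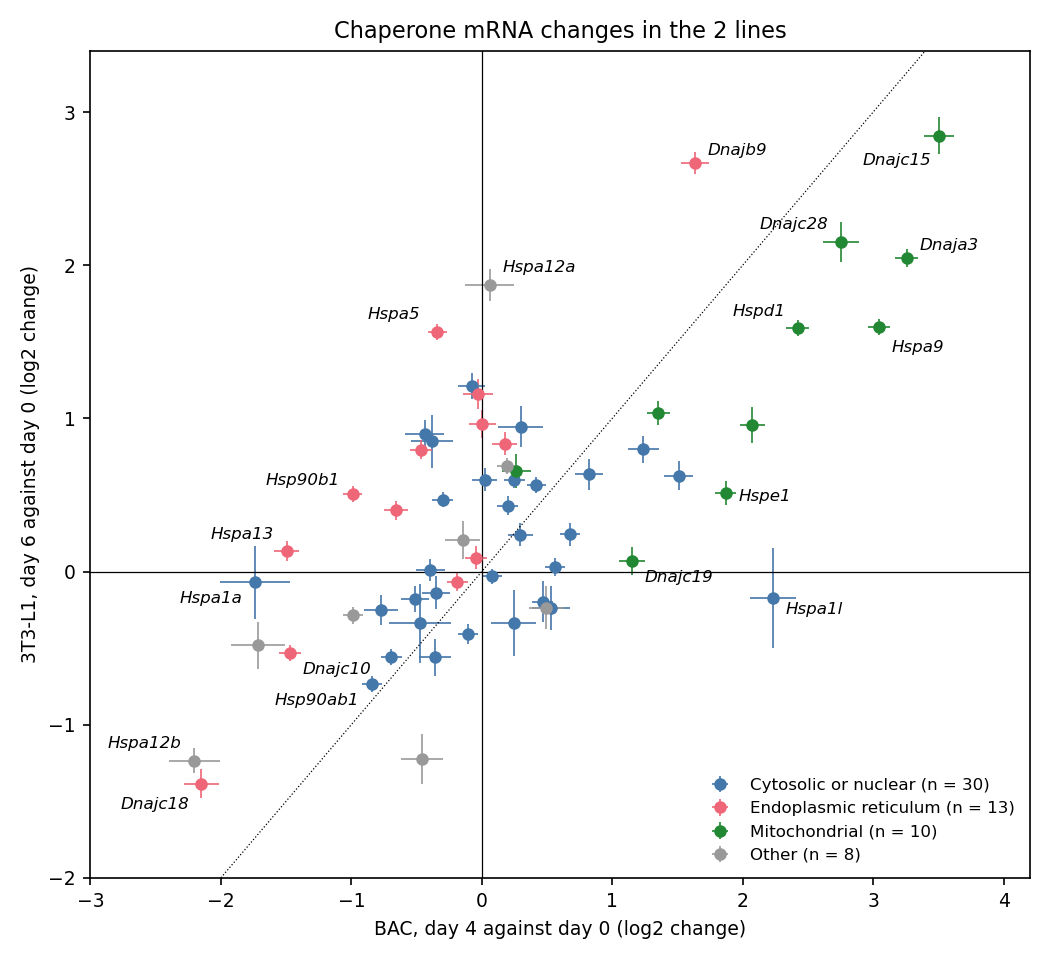
Fitted log2 change of each member tested in both lines, BAC on the x axis and 3T3-L1 on the y axis, coloured by compartment, with bars of 1 SE. Dotted line, equal change. Mitochondrial members lie to the right of 0, and most lie below the dotted line, whereas every reticulum member lies above it.

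In the mitochondrial group, Hspa9, the matrix Hsp70 that pulls proteins in and folds them, went from 292 and 301 CPM to 2476 and 2413 CPM in BAC. In 3T3-L1 it went from 424 and 446 CPM to 1327 and 1297 CPM. The groups did not overlap in either line. Hspa9 rose by 3.04 ± 0.08 on the log2 scale (SE, n = 2 libraries per group), or 8.25-fold, in BAC (edgeR adjusted p = 1.35e-13) and by 1.59 ± 0.05, or 3.02-fold, in 3T3-L1. The difference in change was 1.42 ± 0.09 (adjusted p = 1.04e-12), the largest among the 10 mitochondrial members.

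Hspd1, the barrel of the mitochondrial chaperonin, went from 178 and 155 CPM to 855 and 929 CPM in BAC. In 3T3-L1 it went from 246 and 232 to 732 and 705 CPM. Hspe1, its lid, went from 73.0 and 67.3 to 259 and 253 CPM in BAC. In 3T3-L1 Hspe1 went from 67.7 and 65.7 to 105 and 85.9 CPM, so the 2 genes of one start region rose together in BAC, by 2.42 ± 0.09 and 1.87 ± 0.08, and less evenly in 3T3-L1, by 1.59 ± 0.05 and 0.51 ± 0.08. The difference in change was 0.81 ± 0.10 for Hspd1 and 1.33 ± 0.11 for Hspe1. In RefSeq, Hspd1 spans chr1:55077833-55088243 and Hspe1 spans chr1:55088148-55091317. By the exons of GENCODE M21, the 2 genes share 112 exon bases on opposite strands, and reads there cannot be assigned without strand.

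The DnaJ partners of Hspa9 rose with it. Dnaja3, the main matrix DnaJ protein, went from 48.7 and 43.8 to 427 and 456 CPM in BAC and from 51.3 and 50.9 to 214 and 208 CPM in 3T3-L1. Its log2 change was 3.26 ± 0.09 in BAC and 2.05 ± 0.06 in 3T3-L1, a difference of 1.18 ± 0.10. Dnajc15, a DnaJ protein of the import motor on the inner membrane, had the largest change of any member in both lines. It went from 6.31 and 6.88 to 76.3 and 73.9 CPM in BAC, a log2 change of 3.51 ± 0.11, and from 10.6 and 6.92 to 65.3 and 60.7 CPM in 3T3-L1, a log2 change of 2.84 ± 0.12. The difference between the lines for Dnajc15, 0.64 ± 0.20, was 0.29 without 3T3-L1 day 0 replicate 2 and no longer passed (adjusted p = 0.284). Dnajc19, another import motor protein, rose in BAC from 24.3 and 22.7 to 52.1 and 52.5 CPM, by 1.15 ± 0.10. In 3T3-L1 its groups overlapped, at 32.4 and 32.4 CPM against 36.3 and 31.6 CPM, with a change of 0.07 ± 0.09 that did not pass. The change of Dnajc19 was -0.22 with library size alone and passed as a fall (adjusted p = 0.0264).

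Of the remaining mitochondrial members, Dnajc4, Dnajc11 and Dnajc28 rose by 2.07 ± 0.09, 1.35 ± 0.09 and 2.75 ± 0.14 in BAC and by 0.96 ± 0.12, 1.04 ± 0.08 and 2.15 ± 0.13 in 3T3-L1. The differences of Dnajc11 and Dnajc28, 0.29 ± 0.12 and 0.57 ± 0.21, lost their call when single libraries were left out: Dnajc11 without BAC day 4 replicate 2, 3T3-L1 day 0 replicate 2 or either day 6 library (0.15 to 0.34), and Dnajc28 without BAC day 4 replicate 1, 3T3-L1 day 0 replicate 3 or day 6 replicate 1 (0.49 to 0.53). Dnajc30, a protein linked to the ATP synthase, stood apart. It went from 24.9 and 21.9 to 27.9 and 28.3 CPM in BAC, a log2 change of 0.26 ± 0.11, and from 18.6 and 15.8 to 26.6 and 27.6 CPM in 3T3-L1, a log2 change of 0.66 ± 0.11. Its BAC call was lost without any one of the 4 libraries (0.15 to 0.33) and under every other alternative except the replicate block, so 9 of the 10 mitochondrial members hold the rise in BAC. Its difference of -0.42 ± 0.16, the 1 smaller value in this group, was -0.40 to -0.18 and did not pass without BAC day 0 replicate 1 or 2, 3T3-L1 day 0 replicate 3 or day 6 replicate 2.

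**Figure D2:**
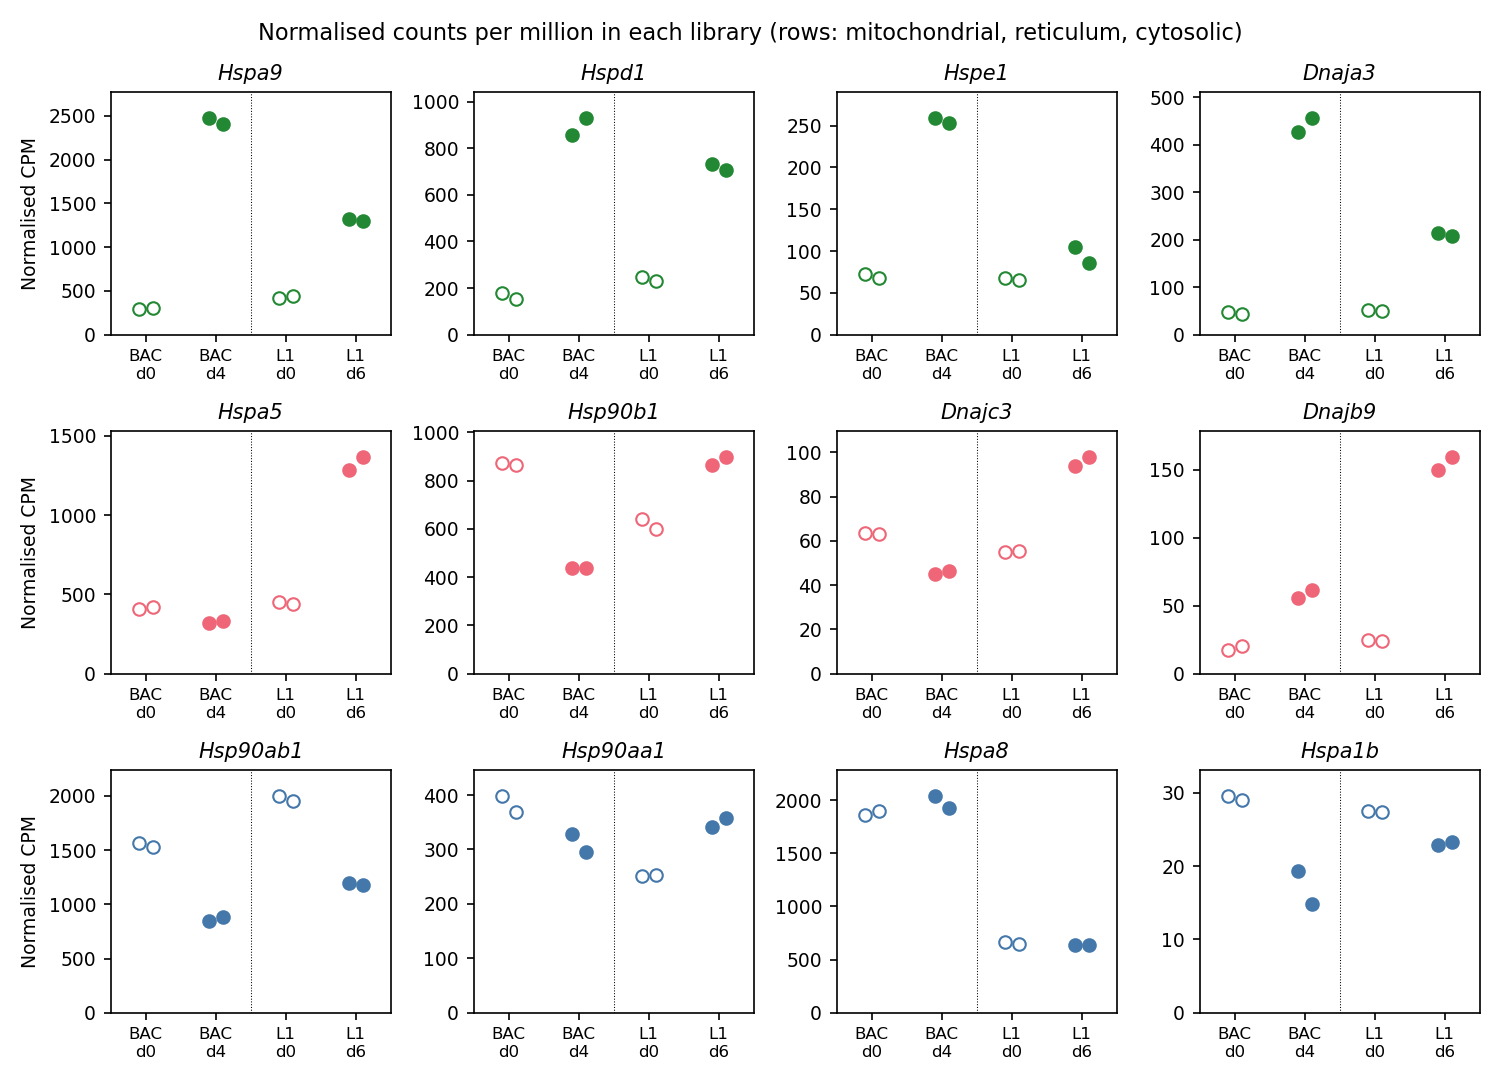
TMM-normalised CPM of 12 members in each library, with open points for day 0 and filled points for day 4 of BAC or day 6 of 3T3-L1 (L1). Hspa9, Hspd1, Hspe1 and Dnaja3 were higher after differentiation in both lines, whereas Hspa5, Hsp90b1 and Dnajc3 were lower in BAC and higher in 3T3-L1.

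In the reticulum group, falls outnumbered rises in BAC and rises outnumbered falls in 3T3-L1. With library size alone, 1 member rose and 11 fell in BAC, and 7 rose and 5 fell in 3T3-L1. Hspa5 (chr2:34772090-34776529), also called BiP, the Hsp70 that folds secreted proteins and holds the stress sensors of the reticulum, fell from 407 and 421 to 321 and 332 CPM in BAC. In 3T3-L1 it rose from 455 and 440 to 1285 and 1366 CPM. The differentiated libraries lay below those of day 0 in BAC and above those of day 0 in 3T3-L1. Levels were not compared between the lines, whose counts were normalised apart. The log2 change was -0.34 ± 0.07 in BAC (adjusted p = 0.000664) and 1.57 ± 0.05 in 3T3-L1, and the difference of -1.94 ± 0.09 (adjusted p = 3.36e-15) was the most negative of all members tested.

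Hsp90b1 (chr10:86690841-86705444), the Hsp90 of the reticulum, showed the same pattern. It went from 874 and 863 to 439 and 436 CPM in BAC, a fall of 1.99-fold, and from 640 and 599 to 865 and 897 CPM in 3T3-L1, a rise of 1.42-fold. Its difference in change was -1.53 ± 0.09 (adjusted p = 2.32e-13). Dnajc3, a co-chaperone of Hspa5 that also restrains the kinase PERK, went from 63.3 and 63.1 to 45.1 and 46.5 CPM in BAC and from 54.9 and 55.6 to 93.8 and 97.9 CPM in 3T3-L1. Dnajb11, which delivers unfolded proteins to Hspa5, went from 80.9 and 87.2 to 57.0 and 49.7 CPM in BAC and from 100.1 and 89.2 to 127 and 123 CPM in 3T3-L1. Their differences were -1.29 ± 0.10 and -1.08 ± 0.11. The rise of Dnajb11 in 3T3-L1, 0.40 ± 0.06, was 0.11 with library size alone and then did not pass. These 4 genes are the reticulum members in whose windows a stress element was found. Whether the element bears on the pattern was not tested. The difference was negative for all 13 reticulum members, with or without an element found, among them Hspa13 at -1.66 and Dnajc16 at -1.22.

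Dnajb9 was the exception in BAC. This co-chaperone, which helps clear misfolded proteins and keeps the sensor Ern1 off, went from 17.4 and 20.3 to 55.6 and 61.2 CPM in BAC and from 24.5 and 24.1 to 150 and 159 CPM in 3T3-L1. It rose 3.10-fold and 6.35-fold, by 1.63 ± 0.11 and 2.67 ± 0.07, and the difference was again negative, at -1.06 ± 0.13. Falls in both lines were seen for Dnajc10, a disulfide reductase, with -1.47 ± 0.08 and -0.53 ± 0.05, and for Dnajc18, a membrane DnaJ protein, with -2.15 ± 0.13 and -1.38 ± 0.09. Hspa13, an Hsp70-like protein of the reticulum, fell in BAC from 70.9 and 70.6 to 24.0 and 26.1 CPM, with a change of -1.50 ± 0.09, and was 79.3 and 82.9 against 85.0 and 92.9 CPM in 3T3-L1, where the change of 0.13 ± 0.06 did not pass. The 3T3-L1 change of Hspa13 passed as a rise with DESeq2 size factors (0.14, adjusted p = 0.0478) and as a fall with library size alone (-0.16, adjusted p = 0.0283). Dnajc16, Dnajb14 and Dnajb12 rose in 3T3-L1 by 1.16 ± 0.10, 0.96 ± 0.09 and 0.84 ± 0.08 and were -0.03 ± 0.11, 0.00 ± 0.10 and 0.18 ± 0.10 in BAC, where none of the 3 passed. Dnajc16 was -0.29 in BAC with library size alone and passed as a fall (adjusted p = 0.03). Dnajc1 and Dnajc14 passed in neither line nor in the difference, although Dnajc14 was near the threshold in BAC (-0.19 ± 0.08, adjusted p = 0.0515). With DESeq2 size factors, upper-quartile factors or the replicate block, 8 reticulum members were lower in BAC.

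**Figure D3:**
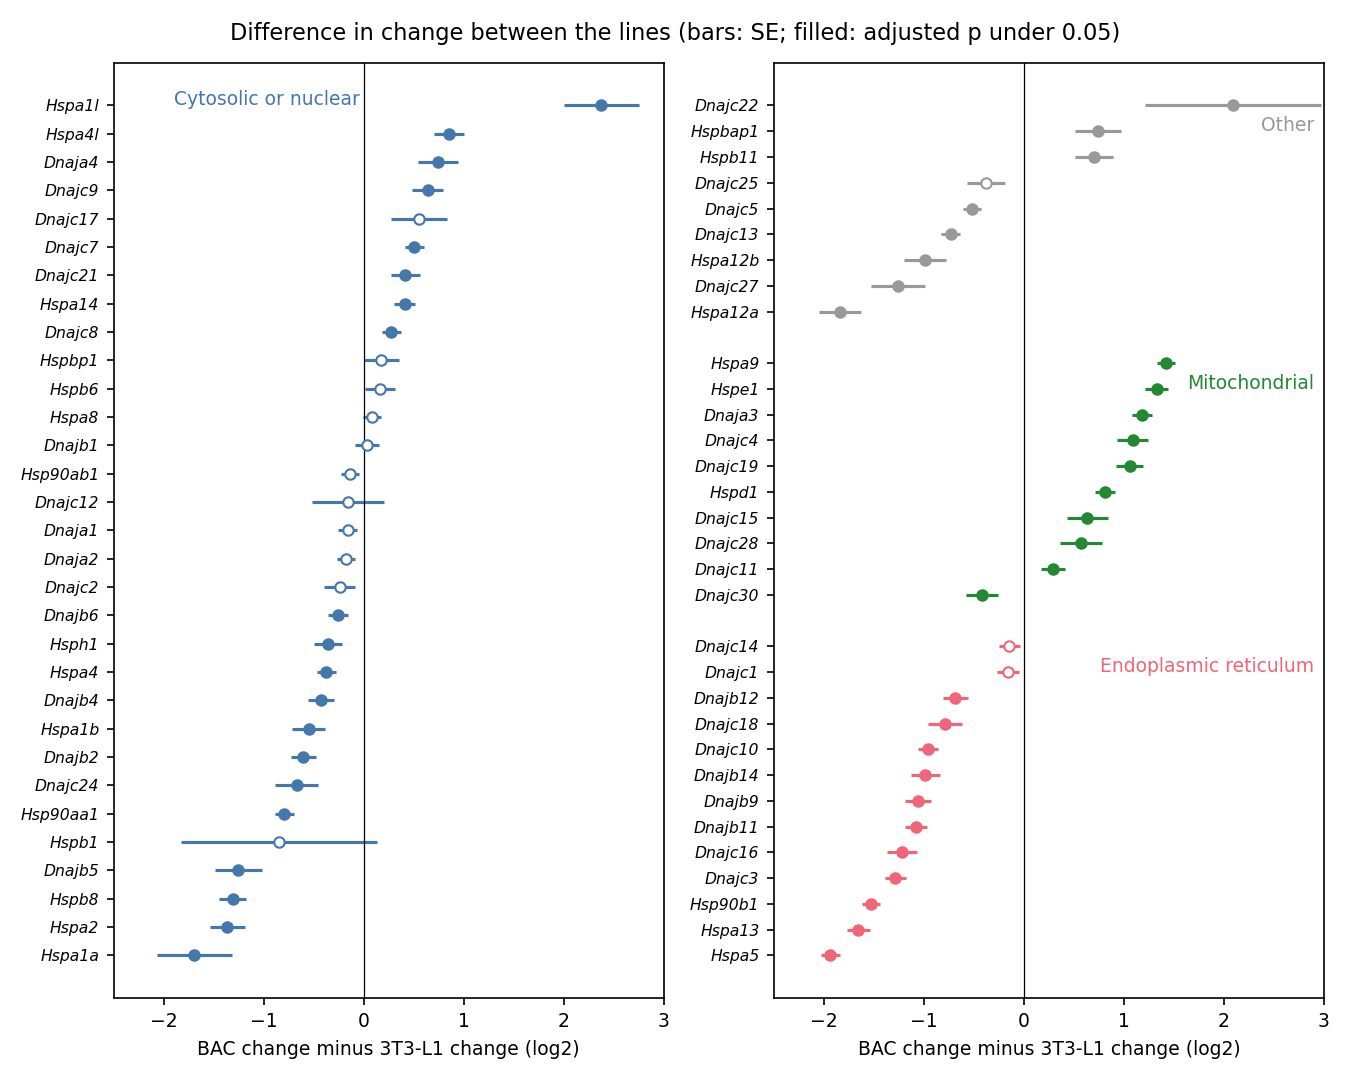
Difference in log2 change, BAC minus 3T3-L1, of each of the 63 members tested, with bars of 1 SE and filled points for an adjusted p under 0.05. All 13 reticulum members lie left of 0 and 9 of 10 mitochondrial members lie right of it, whereas cytosolic members lie on both sides.

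The cytosolic group held no common direction. With library size alone, its calls were 7 higher and 16 lower in BAC and 12 higher and 14 lower in 3T3-L1. Hsp90ab1 (chr17:45567778-45573261), the constitutive Hsp90, fell in both lines, from 1567 and 1532 to 844 and 882 CPM in BAC and from 2000.0 and 1950 to 1199 and 1176 CPM in 3T3-L1. The log2 changes were -0.84 ± 0.08 and -0.73 ± 0.05, and the difference, -0.14 ± 0.09, did not pass. Hsp90aa1, the stress-inducible Hsp90, went from 398 and 369 to 329 and 295 CPM in BAC and from 252 and 253 to 341 and 358 CPM in 3T3-L1. Its changes of -0.30 ± 0.08 and 0.47 ± 0.05 differed by -0.79 ± 0.10 (adjusted p = 1.06e-07), although its fall in BAC was -0.27 and did not pass without BAC day 0 replicate 1 (adjusted p = 0.057).

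Hspa8, the constitutive cytosolic Hsp70, was 1858 and 1894 against 2038 and 1926 CPM in BAC, and 666 and 643 against 642 and 639 CPM in 3T3-L1, undifferentiated libraries first. Its changes of 0.08 ± 0.08 and -0.03 ± 0.05 did not pass. With library size alone they were -0.18 and -0.32 and both passed, and with upper-quartile factors the 3T3-L1 change was -0.19 and passed. The stress-inducible Hsp70 genes Hspa1a and Hspa1b are near-identical copies and their counts are uncertain one by one. Hspa1b went from 29.6 and 29.0 to 19.4 and 14.9 CPM in BAC and from 27.5 and 27.3 to 22.8 and 23.3 CPM in 3T3-L1, with changes of -0.77 ± 0.13 and -0.25 ± 0.10. The latter lost its call without any one of the 3T3-L1 libraries (-0.26 to -0.23, adjusted p = 0.0509 to 0.0947). Hspa1a went from 5.95 and 6.15 to 2.03 and 1.57 CPM in BAC, a log2 change of -1.74 ± 0.27, and its groups overlapped in 3T3-L1, at 3.88 and 3.79 against 3.36 and 3.96 CPM. Hspa1l, an Hsp70 known from the testis, lies beside them and went from 3.87 and 3.71 to 18.2 and 17.5 CPM in BAC, by 2.23 ± 0.17, with overlapping groups of 1.89 and 3.60 against 2.09 and 2.79 CPM in 3T3-L1. It shares 1778 exon bases with the opposite-strand gene Gm10501, so its counts may hold reads of that gene.

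The co-chaperones of the cytosolic Hsp70 went different ways. Dnaja1, which carries clients to Hspa8, fell from 135 and 128 to 85.1 and 78.0 CPM in BAC and from 220.2 and 219 to 145 and 153 CPM in 3T3-L1, by 0.69 and 0.56 on the log2 scale. Dnajb1, the classical stress-inducible DnaJ protein, changed by 0.30 ± 0.09 and 0.24 ± 0.07. Its BAC call was lost without either day 0 library or day 4 replicate 1 (0.18 to 0.28), with no filter and with DESeq2 (0.27 and 0.26), and with library size alone (0.03, adjusted p = 0.763). Its 3T3-L1 call was lost without day 6 replicate 1 (0.16), with DESeq2 (0.25), with upper-quartile factors (0.08) and with library size alone (-0.05). Hsph1, a nucleotide exchange factor, fell in BAC from 36.5 and 39.6 to 25.7 and 27.7 CPM, by 0.51 on the log2 scale, and was 44.6 and 53.4 against 42.7 and 43.9 CPM in 3T3-L1, where its change of -0.18 ± 0.09 did not pass but was -0.30 and passed without day 0 replicate 2 (adjusted p = 0.0059), as it also did with upper-quartile factors (-0.34) and library size alone (-0.47). Hspa4l, a relative of Hsph1, rose from 13.7 and 13.8 to 40.2 and 38.2 CPM in BAC and from 26.2 and 26.6 to 37.6 and 44.0 CPM in 3T3-L1, by 1.51 ± 0.11 and 0.63 ± 0.09. Dnajc21, which acts in ribosome assembly, rose by 1.24 ± 0.12 and 0.80 ± 0.09.

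Among the small heat shock proteins, Hspb8, a partner of Bag3 in clearing aggregates, was 52.4 and 50.6 against 53.8 and 43.8 CPM in BAC and rose from 24.2 and 24.2 to 58.5 and 53.5 CPM in 3T3-L1, by 1.21 ± 0.08. The difference was -1.31 ± 0.14. The BAC change of Hspb8 did not pass, but with library size alone it was -0.34 and passed as a fall (adjusted p = 0.00693). Hspb1, known for binding actin and unfolded proteins, was 9.05 to 12.2 CPM in all 4 BAC libraries and held at most 3 counts in any 3T3-L1 library. Hspa2 went from 18.2 and 15.2 to 11.8 and 12.8 CPM in BAC and rose in 3T3-L1 from 22.9 and 20.96 to 40.0 and 41.9 CPM, by 0.90 ± 0.09. Its fall in BAC, -0.44 ± 0.15, was -0.33 without day 0 replicate 1 and -0.38 without day 4 replicate 1 and did not pass there. In 3T3-L1, Dnajc24, which takes part in making diphthamide, rose by 0.95 ± 0.13, and Hspbp1, which binds Hsp70, fell by 0.56 on the log2 scale. Dnajc24 was 0.30 ± 0.17 in BAC and did not pass. Hspbp1 was -0.36 ± 0.12 in BAC, a call lost under 4 alternatives, among them no filter and DESeq2 (-0.39 in both). The difference of Hspbp1, 0.17 ± 0.17, did not pass.

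Of the 9 members outside the 3 compartments, Hspa12a had the most negative difference between the lines. It was 8.65 and 10.0 against 8.13 and 11.4 CPM in BAC and rose from 11.5 and 10.9 to 40.7 and 41.3 CPM in 3T3-L1, by 1.87 ± 0.10, a difference of -1.84 ± 0.21. Its relative Hspa12b fell in both lines, from 22.3 and 19.3 to 5.50 and 3.51 CPM in BAC and from 58.0 and 60.4 to 24.7 and 25.6 CPM in 3T3-L1, by 2.20 and 1.24 on the log2 scale. Dnajc27, a small GTPase with a DnaJ domain, fell by 1.72 on the log2 scale in BAC and was -0.48 ± 0.16 in 3T3-L1, a call lost without day 0 replicate 3, day 6 replicate 1 or day 6 replicate 2 (-0.48 to -0.34). Dnajc13, an endosome protein, fell in BAC by 0.99 ± 0.08 on the log2 scale and was -0.29 ± 0.06 in 3T3-L1, where the fall also passed. Dnajc5, a chaperone of secretory vesicles, rose in 3T3-L1 by 0.69 ± 0.05, and its 0.20 ± 0.08 in BAC lost its call under 8 alternatives, among them without day 0 replicate 1, day 0 replicate 2 or day 4 replicate 2 (0.13 to 0.20) and with library size alone (-0.07). Hspb11, which is part of the transport system of cilia, rose by 0.49 ± 0.13 in BAC, a call lost with library size alone (0.23, adjusted p = 0.124) and with DESeq2 (0.46, adjusted p = 0.0864). Hspbap1 fell in 3T3-L1 by 1.23 ± 0.16 on the log2 scale. In BAC it was -0.46 ± 0.16, a call lost under 4 alternatives, among them DESeq2 (-0.49). Dnajc22 held 3 to 16 counts per BAC library and was not tested in 3T3-L1 alone.

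Read side by side, 19 members rose in both lines and 10 fell in both. In 7 members a fall in BAC stood against a rise in 3T3-L1, namely Hspa5, Hsp90b1, Dnajb11, Dnajc3, Hsp90aa1, Hspa2 and Dnajb5. The difference passed its test for each of the 7. They were picked by opposite calls in the same libraries, so this adds no separate support. Both calls held under every alternative for Hspa5, Hsp90b1 and Dnajc3. The weakest of the 7 was Dnajb5, whose fall in BAC of -0.38 ± 0.16 did not pass without either day 0 library or day 4 replicate 1 (-0.46 to -0.24). The number of members that rose in BAC and fell in 3T3-L1 was 0. These joint counts were not made over all genes, of which 78.5% passed in BAC and 79.4% in 3T3-L1. Whether they are particular to the members was therefore not tested. Of the members, 9 were tested in neither line. With DESeq2, calls were also lost for the BAC fall of Hspa2 (adjusted p = 0.105), the 3T3-L1 falls of Hspa1b and Dnajc27 (adjusted p = 0.233 and 0.125) and the difference of Dnajc28 (adjusted p = 0.0668). The BAC fall of Dnajb5 and the difference of Dnajc11 lost their calls both with DESeq2 and with no filter. With no filter, calls were lost for the BAC fall of Hspa2 (adjusted p = 0.0587) and the difference of Dnajc15 (adjusted p = 0.054). At most 5 counts in every library were held in BAC by Dnajb3, Dnajb7, Dnajb8, Dnajb13, Dnajc6, Hspb3, Hspb7 and Hspb9, and in 3T3-L1 by Dnajb7, Dnajb8, Dnajc6, Hspb1, Hspb3, Hspb7 and Hspb9.

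As shares of all counts, the members together took 0.90% and 0.89% of the BAC libraries at day 0 and 0.97% and 0.97% at day 4, and 0.82% and 0.81% of the 3T3-L1 libraries at day 0 and 0.90% and 0.91% at day 6. Within this sum the mitochondrial share went from 0.078% and 0.076% to 0.40% and 0.41% in BAC and from 0.10% and 0.10% to 0.24% and 0.23% in 3T3-L1. The reticulum share went from 0.22% and 0.22% to 0.12% and 0.12% in BAC, and from 0.20% and 0.20% to 0.28% and 0.29% in 3T3-L1. The cytosolic share was lower after differentiation in both lines, at 0.43% and 0.42% from 0.56% and 0.56% in BAC and at 0.34% and 0.34% from 0.47% and 0.46% in 3T3-L1. In BAC, Hsp90ab1 went from 17384 and 16934 to 7056 and 7299 counts, of cytosolic sums of 57208 and 56681, then 39603 and 38040. In 3T3-L1 Hsp90ab1 went from 21124 and 20560 to 10347 and 10104, of 45137 and 44021, then 32331 and 32343. All shares use library totals without TMM factors. With TMM factors, the cytosolic median log2 change was 0.08 in BAC and 0.02 in 3T3-L1. Each share differed between days by more than its 95% Wilson interval, which covers counting error only.

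**Figure D4:**
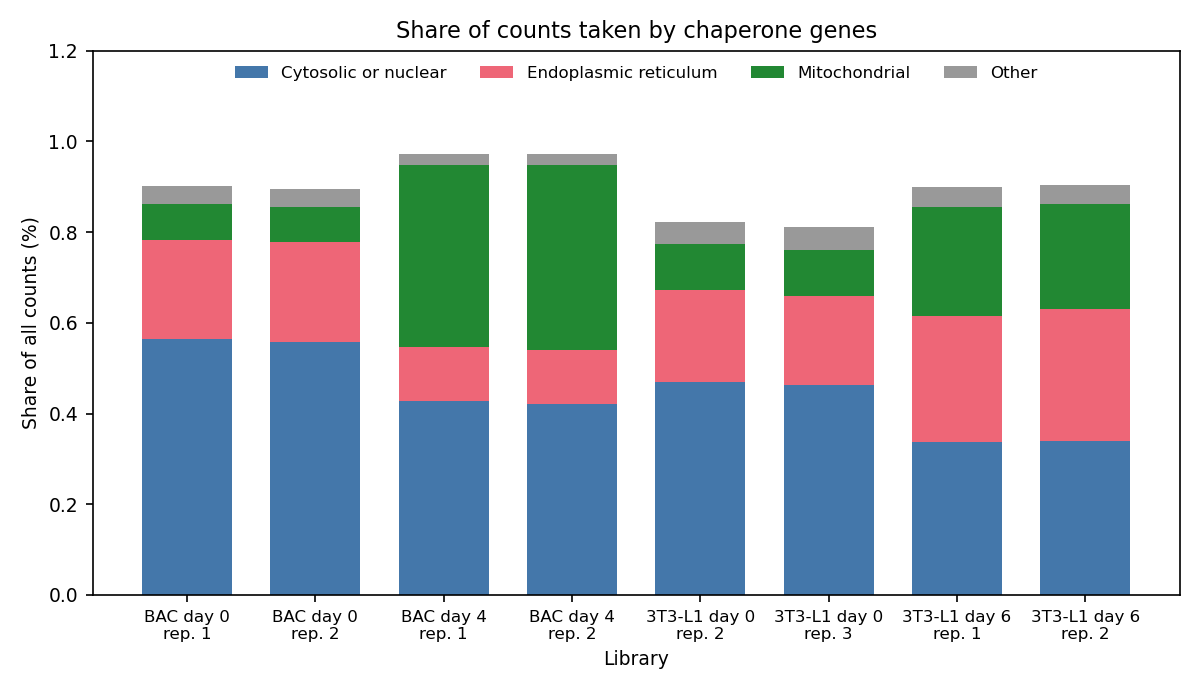
Share of all counts of each library (%) taken by the members, stacked by compartment. The total stayed between 0.81% and 0.97% in the 8 libraries, while the mitochondrial segment in BAC grew from 0.078% and 0.076% to 0.40% and 0.41%.

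Per length of exon, the order of the members also changed. In BAC at day 0, Hsp90ab1 led with 517 ± 8.14 CPM per kb (SD, n = 2), ahead of Hspa8 with 436 ± 5.82 and Hsp90b1 with 215 ± 1.98, and Hspa9 stood at 68.8 ± 1.55. At day 4, Hspa9 led with 567 ± 10.3 CPM per kb, ahead of Hspa8 with 461 ± 18.5, Hspd1 with 338 ± 20.0 and Hsp90ab1 with 288 ± 9.15. In 3T3-L1 at day 6, Hsp90ab1 led with 396 ± 5.39 CPM per kb, and Hspa5 with 313 ± 13.6 and Hspa9 with 304 ± 4.97 followed within their spread.

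Genes that work with the members were read from 4 further lists. Mitochondrial co-chaperones and proteases were 12 higher and 0 lower of 14 tested in BAC (median 1.75) and 12 higher and 1 lower in 3T3-L1 (median 0.97), with 9 larger and 2 smaller in the difference. Clpx, which unfolds proteins for the matrix protease, rose by 3.02 ± 0.09 in BAC and 2.30 ± 0.06 in 3T3-L1. Afg3l2, an inner membrane protease, rose by 2.68 ± 0.08 in BAC and 1.98 ± 0.06 in 3T3-L1. Grpel1, the nucleotide exchange factor of Hspa9, rose by 2.67 ± 0.09 in BAC and 2.41 ± 0.06 in 3T3-L1. The exception was Htra2, a protease of the intermembrane space, which fell by 0.81 ± 0.09 on the log2 scale in 3T3-L1.

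The unfolded protein response and reticulum folding list was 11 higher and 10 lower of 26 tested in BAC (median -0.00074) and 21 higher and 3 lower in 3T3-L1 (median 0.53), with 5 larger and 18 smaller in the difference. The disulfide isomerases P4hb and Pdia3 fell by 2.33 ± 0.08 and 1.63 ± 0.08 on the log2 scale in BAC. Ero1l, which supplies oxidation for disulfide bonds, rose by 4.39 ± 0.09 and Ddit3, a stress transcription factor also called CHOP, by 2.00 ± 0.08. In 3T3-L1, Ero1l rose by 4.80 ± 0.07 and Xbp1, the transcription factor activated by the sensor Ern1, by 2.51 ± 0.06, while Pdia3 fell by 0.61 ± 0.06 and Ern1 by 0.32 ± 0.14 on the log2 scale. P4hb rose in 3T3-L1 by 0.30 ± 0.05, and Ddit3, at 0.01 ± 0.06, did not pass there. Ern1 rose in BAC by 1.19 ± 0.17, and Xbp1, at 0.14 ± 0.08, did not pass there.

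Heat shock factors and cytosolic co-chaperones were 14 higher and 3 lower of 20 in BAC (median 0.32) and 11 higher and 4 lower in 3T3-L1 (median 0.19). With library size alone the counts were 5 higher and 6 lower in BAC and 7 higher and 9 lower in 3T3-L1. Bag3, a co-chaperone of Hspb8, fell by 1.29 ± 0.09 and Cdc37, which brings kinases to Hsp90, by 0.45 ± 0.07 on the log2 scale in BAC. In 3T3-L1, Cdc37 also fell, at -0.50 ± 0.06, and Bag3 was -0.02 ± 0.07 and did not pass. Fkbp5, an Hsp90 partner induced by glucocorticoids, rose by 1.89 ± 0.09 in BAC and was -0.85 ± 0.09 in 3T3-L1, and Bag4 rose in both, by 1.79 ± 0.09 and 1.72 ± 0.07. In 3T3-L1, Bag1 rose by 1.67 ± 0.07 and Hsf4 fell by 3.72 ± 0.30 on the log2 scale. The cytosolic chaperonin TRiC, which folds actin and tubulin, was 4 higher and 0 lower of 8 in BAC, led by Tcp1 with 0.42 ± 0.08 and Cct2 with 0.35 ± 0.07. In 3T3-L1 it was 2 higher and 4 lower, with Cct6a at 0.26 ± 0.05, Tcp1 at 0.12 ± 0.05, Cct5 at -0.35 ± 0.05 and Cct4 at -0.45 ± 0.05. These directions depended on scaling: with library size alone the counts were 0 higher and 1 lower in BAC and 0 higher and 7 lower in 3T3-L1.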

How the data were processed

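For each line the authors deposited a table of unnormalised read counts by gene symbol. STAR and HTSeq are given in the study's methods, but Bowtie2 with RSEM 1.3.1, beside DESeq2 1.4.5 and mm10, in the submitters' processing notes, so the counting tool is not settled. No source used here states the use of strand, and 28 of the 72 members share exon bases with another gene in GENCODE M21. The 27 BAC rows whose symbols had turned into dates (of 35976 rows) were left out.

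Each line was tested alone by a quasi-likelihood F test (edgeR 4.0.16, R 4.3.3, two-sided), with TMM factors, filterByExpr (minimum count 10) and Benjamini-Hochberg adjustment over all genes tested. The difference in change was tested in 1 fit over 8 libraries on 21828 shared symbols. CPM is TMM-normalised, and the SE of a log2 change was derived from the F statistic. With 9045849 to 10160636 counts per library, members of few counts have wide errors. The fits were tested on simulated data.

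Members, lists and compartments were chosen with earlier results of these data known. Genes were named by a rule: 20 core chaperones, the 3 largest rises and falls per compartment and line at a mean log2 CPM of 1 or more, the 5 largest differences in each direction, and the 2 largest changes per direction in each related list. Dnajb5, Dnajb12, Dnajb14, Dnajc1, Dnajc4, Dnajc11, Dnajc14 and Dnajc30 fall outside it and were named after their values were seen. Alternatives were other scaling factors, no filter, DESeq2 1.42.0, left-out replicates, a replicate block and core members only.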

Additional observations from a re-analysis of the deposited data

Results flagged for a closer look

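The change by day differed between the lines, by the edgeR test of the difference itself (adjusted p under 0.05), for 49 of 63 members tested. Over all 12863 genes tested, 59% passed the same test. Values are BAC change minus 3T3-L1 change on the log2 scale. The 5 most negative differences were Hspa5 (-1.94), Hspa12a (-1.84), Hspa1a (-1.70), Hspa13 (-1.66) and Hsp90b1 (-1.53). The 5 most positive were Hspa1l (2.38), Dnajc22 (2.09), Hspa9 (1.42), Hspe1 (1.33) and Dnaja3 (1.18). Members that fell in BAC and rose in 3T3-L1 were, beside Hspa5 and Hsp90b1, Hspa2 (-1.36), Dnajc3 (-1.29), Dnajb5 (-1.26), Dnajb11 (-1.08) and Hsp90aa1 (-0.79). The value of Dnajc22 rests on few counts and did not pass without BAC day 0 replicate 1 or 2, BAC day 4 replicate 1 or any one of the 3T3-L1 libraries (1.73 to 2.45). Hspa1a and Hspa1b are near-identical copies, and Hspa1l overlaps Gm10501. Line and day of sampling cannot be told apart in these differences.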

How the results depend on the processing

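Of the members called, 33 of 48 in BAC, 39 of 44 in 3T3-L1 and 34 of 49 in the difference kept their call under every alternative run, and 0 were called in the opposite direction. Leaving out 1 library ended the call of 13, 4 and 14 members. The reticulum difference stayed at 11 smaller and 0 larger under each scaling. The cause of the following moves was not tested.

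With library size alone, BAC medians were -0.18 (cytosolic, reversed), -0.61 (reticulum), 1.98 (mitochondrial) and -0.41 (other), and BAC calls were 7 cytosolic higher, 11 reticulum lower, 1 other higher, 5 higher and 6 lower co-chaperones, and 0 higher and 1 lower for TRiC. In 3T3-L1, medians were -0.27 (cytosolic, reversed), 0.22 (reticulum), 1.02 (mitochondrial) and -0.55 (other), and calls were 25 members lower, 14 cytosolic lower, 5 reticulum lower, 1 mitochondrial lower, 7 higher and 9 lower co-chaperones, 5 unfolded protein response lower, 2 mitochondrial co-chaperones lower, and 0 higher and 7 lower for TRiC. Under the same scaling Dnajc5 (-0.067) and Hspa8 (-0.18) reversed in BAC, and Dnajb1 (-0.049), Dnajc19 (-0.22) and Hspa13 (-0.16) in 3T3-L1.

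With upper-quartile factors, 3T3-L1 medians were -0.14 (cytosolic, reversed), 0.35 (reticulum), 1.15 (mitochondrial) and -0.42 (other), with 19 members lower, 11 cytosolic lower, 2 mitochondrial co-chaperones lower and 0 TRiC higher. TRiC lower in BAC was 1 with DESeq2 size factors, upper-quartile factors and no low-count filter, and TRiC lower in 3T3-L1 was 2 with DESeq2 size factors and with no filter. Cytosolic lower in BAC was 7 with no filter. DESeq2 gave 7 cytosolic lower, 1 other higher and 7 co-chaperones higher in BAC, 1 unfolded protein response lower, 1 TRiC higher and 2 TRiC lower in 3T3-L1, and 7 cytosolic smaller and 1 other larger in the difference. Mitochondrial smaller in the difference was 0 with DESeq2 size factors, upper-quartile factors, library size alone and DESeq2. With core members only, BAC medians were -0.56 (reticulum), 2.73 (mitochondrial) and -0.14 (cytosolic, reversed), and 3T3-L1 medians 1.59 (mitochondrial) and 0.12 (cytosolic).

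Without 1 replicate, ranges were, in BAC, 7 to 10 cytosolic lower, 7 to 12 co-chaperones higher, 0 to 1 TRiC lower, and medians of 2.17 to 2.28 (mitochondrial) and -0.28 to -0.067 (other); in 3T3-L1, a cytosolic median of -0.0014 to 0.093, 1 to 2 unfolded protein response lower, 1 to 2 mitochondrial co-chaperones lower, and 1 to 3 higher and 2 to 4 lower for TRiC; and in the difference 6 to 11 cytosolic and 0 to 1 mitochondrial smaller.

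For BAC, deviations of libraries with the same replicate number correlated at 0.047 over 11313 genes, so no shared effect of the number was seen. With 1 such deviation per day, this cannot tell whether the libraries were paired. With the replicate block 49 BAC members were called, 26 higher and 23 lower, and 1 TRiC gene was lower; no named gene changed its call. No paired analysis was possible for 3T3-L1 because its groups share only 1 replicate number. Depth of 9045849 to 10160636 counts leaves members of few counts, such as Hspa1a, Hspa1l and Dnajc22, with wide errors, and 2 libraries per group limit every test.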
